A study of Mus musculus with 4 samples.

Results

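The transcripts of 10 genes that control or mark blood stem and progenitor cells were followed across dendritic cell (DC) cultures from mouse bone marrow. They are Myb, Cd34, Gata1, Tal1, Lyl1, Meis1, Runx1, Cebpa, Lmo2 and Gfi1, and their probes are all non-control probes whose gene name on the array equals a listed symbol. This gave 16 probes of 41174 on each array, for 10 genes of the 19822 that could be named. All 10 genes had a probe: 6 had 1 probe, and Myb (4), Meis1 (2), Runx1 (2) and Cebpa (2) had several.

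The study held 4 samples from BALB/c mice, each hybridised to 1 one-colour Agilent array. Immature DCs (imDC) came from red cell-depleted marrow grown in IL-4 at 5 ng/mL and GM-CSF at 10 ng/mL. On day 4 their loosely adherent clusters were kept and selected on beads for CD11c, a DC integrin. Mature DCs (maDC) were such cells cultured for 4 to 5 further days with 10 ng/mL lipopolysaccharide (LPS), a bacterial trigger of DC maturation. The third culture, sDC in the labels, started from marrow depleted of lineage-positive cells, that is, from haematopoietic progenitors, seeded on a layer of Sca-1+CD117-Lin- mesenchymal stem cells (MSCs); LPS was added on day 4 and the cells were taken on day 9. The fourth, antibody-treated sDC, also received 10 µg/mL of an antibody that neutralizes IL-10 every 2 days. The age of the mice, the LPS dose and cytokines of the sDC cultures, and the way sDCs were parted from the MSC layer are not given in the sources used here.

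Blood stem and progenitor cells are held in their state, or steered towards a fate, by a small set of transcription factors. MYB keeps immature cells dividing, and CD34 is a sialomucin carried on the surface of progenitors, mast cell precursors, vessel lining and some stromal cells. GATA1 drives red cell, platelet, mast cell and eosinophil fates; TAL1 and its relative LYL1 bind DNA with E proteins in a complex that the bridging protein LMO2 holds together. RUNX1 and MEIS1 act in stem cells, and C/EBPα (Cebpa) and GFI1 steer progenitors towards granulocytes and monocytes. DCs and macrophages arise from such progenitors.

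With 1 array per culture there are no replicates, so no test between cultures was possible, and every difference below is between 2 single arrays. The level of a probe is given as log2 intensity minus the 75th percentile of its array, and a difference counts as a change of size only from 2-fold, a log2 difference of 1. Levels of different genes were not compared, because probes differ in brightness. The array software called 69.7%, 61.2%, 66.0% and 63.4% of spots well above background on the arrays of imDCs, maDCs, sDCs and antibody-treated sDCs, and probes spotted 10 times gave a median SD between spots of 0.047 to 0.059. The imDC sample was alone on its slide and scan while the remaining 3 shared theirs, so in every comparison with imDCs slide and culture cannot be told apart. The cultures also differed in several conditions at once. Against imDCs, sDCs differed in starting cells, MSC layer, LPS and time in culture, and maDCs in LPS and time. Against maDCs, sDCs differed at least in starting cells and MSC layer. The parts of these conditions cannot be told apart, and "stroma cultures" below is only a name for the 2 sDC samples. In these bulk samples fewer cells of a type and less RNA per cell cannot be told apart. The DC marker list had 8 genes, among them Itgax, which encodes CD11c. In sDCs 8 of 8 were at least 2-fold lower than in imDCs (16.1% of all genes). The stromal list was higher for 9 of 10 and the macrophage list for 8 of 8 (25.4% of all genes). Against maDCs, the same 8 DC genes were lower (16.8%) and 7 of 8 macrophage genes higher (14.2%). The sample labelled sDC thus carried these DC transcripts at lower levels than imDCs and maDCs. Most transcripts of the macrophage list were at higher levels.

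Some of the regulators were lower in the sDC sample and others were not. In sDCs against imDCs, 5 of 10 members were at least 2-fold lower (16.1% of all genes with a value were lower) and 0 were higher (25.4% of all genes). The 5 were Gfi1, Myb, Cd34, Cebpa and Gata1, while Tal1, Lyl1, Meis1, Runx1 and Lmo2 lay within 2-fold. So 5 of 10 passed in either direction, against 41.5% of all genes. The median over the members was -0.97, against 0.21 over all 15037 genes. In sDCs against maDCs, 6 of 10 were lower (16.8% of all genes), namely Myb, Gfi1, Cd34, Gata1, Tal1 and Meis1, and 1, Lyl1, was higher (14.2%), with a median of -1.09 against 0.03; in either direction 31.0% of all genes passed 2-fold. In maDCs against imDCs, 3 of 10 were lower (10.8%), Gfi1, Lyl1 and Cebpa, and 1, Gata1, was higher (21.6%), with a median of -0.31 against 0.18; in either direction 32.3% of all genes passed. The antibody moved none of the 10 by 2-fold, where 2.12% of all genes passed that size. Every comparison shares an array with another, so they are not independent.

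**Figure D1:**
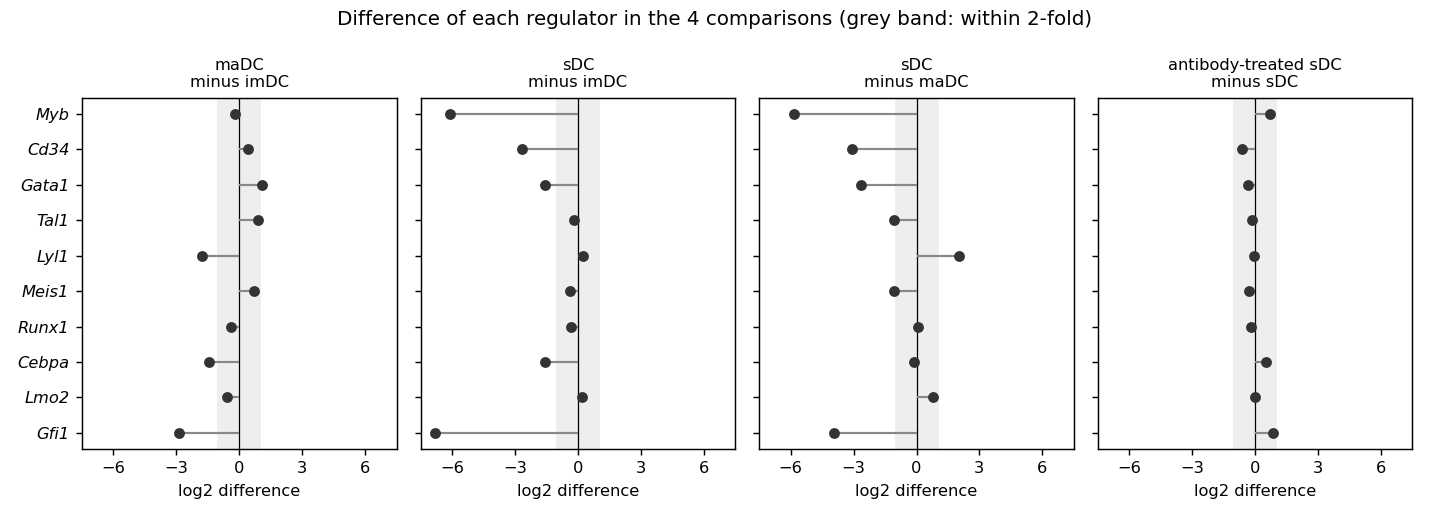
Log2 difference of each of the 10 regulators (brightest probe of each gene) in the 4 comparisons, with the grey band marking differences within 2-fold. Gfi1 and Myb reach -6.84 and -6.08 in sDCs against imDCs, Lyl1 is the member with a difference above 2-fold towards sDCs (2.03 against maDCs), and every point of the antibody panel lies within the band.

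The promoters of Myb, Cd34, Gata1 and Gfi1, the 4 members with the widest range, are shown for the 250 bases before the start site as RefSeq gives it (build GRCm38.p6). Capitals mark any match, on either strand, to a GATA motif (AGATAA or TGATAA), an E-box (CAGATG), a MYB motif (TAACNG), a RUNX motif (TGTGGT), an ETS motif (GGAAGT) or an E2F motif (TTTGGCG). The last was added after the Myb promoter had been read. Of 9 members with a promoter in the table (Lmo2 had none), with 12 start sites, 3 windows held the MYB motif and 1 each the GATA, RUNX, ETS and E2F motifs, while 0 held the E-box. Among all 32851 promoters of this length the shares were 19.8% (MYB), 16.6% (GATA), 14.0% (RUNX), 19.7% (ETS), 1.26% (E2F) and 14.4% (E-box). The Myb window held the E2F motif, with its first base at position -12, and was made of G and C for 81.2% of its bases, against a median of 52.4%. The Cd34 window held the MYB motif on the other strand, from position -59. The windows of Gata1 and Gfi1 held none of the 6. A match is a description of letters and shows no binding.
Myb, chr10:21160985-21161234, minus strand: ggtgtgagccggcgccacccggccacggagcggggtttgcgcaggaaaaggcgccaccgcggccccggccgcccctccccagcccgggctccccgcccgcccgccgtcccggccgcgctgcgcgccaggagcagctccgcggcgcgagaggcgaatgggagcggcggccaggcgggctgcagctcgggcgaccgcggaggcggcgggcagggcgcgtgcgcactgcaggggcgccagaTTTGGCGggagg
Cd34, chr1:194938571-194938820, plus strand: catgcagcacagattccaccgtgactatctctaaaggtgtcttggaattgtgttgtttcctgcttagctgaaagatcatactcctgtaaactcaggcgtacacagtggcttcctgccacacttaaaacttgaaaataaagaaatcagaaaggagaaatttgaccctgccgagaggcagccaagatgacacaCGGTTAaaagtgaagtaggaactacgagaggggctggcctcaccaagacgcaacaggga
Gata1, chrX:7967911-7968160, minus strand: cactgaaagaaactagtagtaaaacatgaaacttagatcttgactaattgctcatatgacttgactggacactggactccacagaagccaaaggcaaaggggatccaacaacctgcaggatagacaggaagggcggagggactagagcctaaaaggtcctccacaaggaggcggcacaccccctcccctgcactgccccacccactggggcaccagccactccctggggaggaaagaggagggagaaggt
Gfi1, chr5:107725806-107726055, minus strand, the first of 2 start sites: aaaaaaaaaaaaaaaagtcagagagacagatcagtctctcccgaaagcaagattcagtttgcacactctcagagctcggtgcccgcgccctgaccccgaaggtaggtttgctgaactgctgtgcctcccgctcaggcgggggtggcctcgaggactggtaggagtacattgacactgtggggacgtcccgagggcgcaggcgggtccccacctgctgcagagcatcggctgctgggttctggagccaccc

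Myb, the gene of the transcription factor that keeps progenitors proliferating, was bright on the imDC and maDC arrays and dim on both arrays of cells formed on stroma. Its brightest probe (mm9 chr10:20844963-20845022) was spotted 10 times on each array. The level was 1.68 ± 0.07 in imDCs, 1.45 ± 0.03 in maDCs, -4.41 ± 0.10 in sDCs and -3.69 ± 0.08 in antibody-treated sDCs (SD over 10 spots of 1 array). The spots of imDCs and maDCs thus lay above those of both stroma cultures. Spots of 1 probe vary little on 1 array, so a lack of overlap says nothing of the spread between cultures. The share of other repeatedly spotted probes without overlap was not computed. Against imDCs the sDC level was 67.8-fold lower (-6.08), and against maDCs 58.1-fold lower (-5.86). These sizes were -5.07 and -4.86 with normexp, a background correction that keeps values above 0. The mean over the Myb probes gave falls of at least these sizes: -4.89 and -4.60. It is a bound because probes not well above background in sDCs entered it with the smallest fall they allow. The sDC level of the brightest probe lay 1.63 log2 units above the dimmest detected probe.

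The other 3 Myb probes were also lower in sDCs, while they differed in the comparison of maDCs with imDCs. The probe 259 bases away on the genome (A_51_P375538) gave -6.61 for sDCs against imDCs. The 2 probes that lie 21828 and 27418 bases away were not well above background in either stroma culture, so the fall was at least 13.9-fold on A_52_P83704 and at least 8.30-fold on A_52_P444839. In maDCs against imDCs the brightest probe was at -0.22, A_51_P375538 at -0.92 and A_52_P444839 at -0.83, while A_52_P83704 stood at 0.82. A_52_P83704 was designed on a full-length cDNA from bone and not on the reference messenger RNA. A_51_P375538 is likewise listed under another sequence than the reference messenger RNA, and it went the other way. The part of probe design was not tested. All of these differences between maDCs and imDCs lie within 2-fold. The first 30 bases of each 60-base Myb probe, 5′ to 3′ as the array files list them, are given to show that the probes read separate stretches of the gene:
A_51_P375543 (brightest): tgggagatttgtgttgtttatgtcatatgt
A_51_P375538: tgtaggtcatgctgctagctagtgtcaggg
A_52_P83704: gtgctagttcaaccacttttgaactttagt
A_52_P444839: atggtccgaagcgttggtctgttattgcca

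Cd34 was, like Myb, lower in sDCs than in imDCs and maDCs, with a smaller size. Its 1 probe (mm9 chr1:196787392-196787451) stood at 2.84 in imDCs, 3.25 in maDCs, 0.18 in sDCs and -0.46 in antibody-treated sDCs. Both stroma cultures were below the imDC and maDC arrays, and sDCs were 6.35-fold lower than imDCs (-2.67) and 8.42-fold lower than maDCs (-3.07). The sDC level was still 6.21 log2 units above the dimmest probe called well above background on that array, so Cd34 transcripts remained clearly measurable there. The maDC and imDC levels differed by 0.41.

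**Figure D2:**
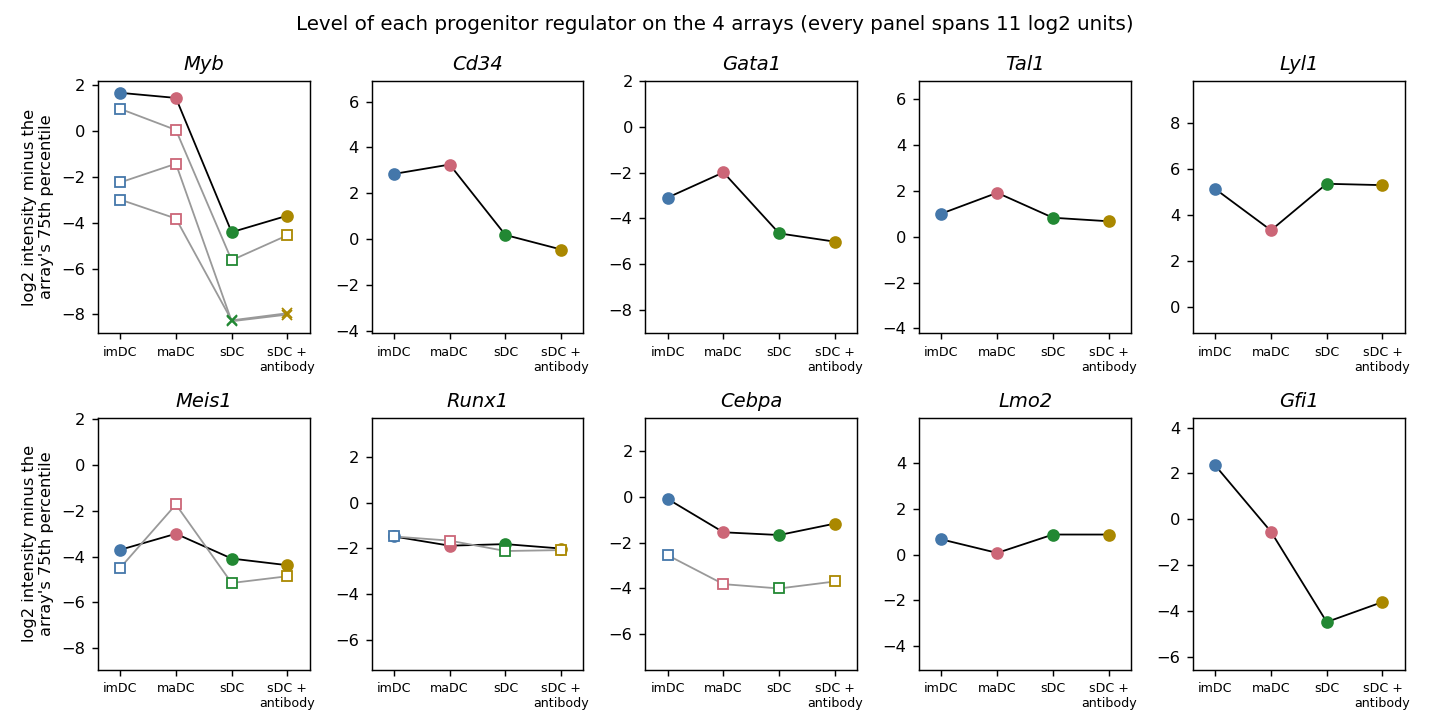
Level of each regulator (log2 intensity minus the 75th percentile of the array) on the 4 arrays, 1 panel per gene and 11 log2 units in every panel. Filled circles are the brightest probe, open squares the other probes and crosses values not well above background; Myb, Gfi1 and Cd34 drop in both stroma cultures, while Runx1 and Lmo2 stay within 1 log2 unit over all 4 arrays.

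Among the genes of the GATA1, TAL1 and LMO2 complex, Gata1 and Lyl1 went opposite ways. Gata1 was measured on 10 spots per array (mm9 chrX:7536849-7536908). It stood at -3.09 ± 0.07 in imDCs, -1.99 ± 0.03 in maDCs, -4.65 ± 0.25 in sDCs and -5.01 ± 0.27 in antibody-treated sDCs (SD over 10 spots of 1 array). Its spots did not overlap between imDCs, maDCs and the stroma cultures, with the limit given above for the Myb spots. They overlapped between the 2 stroma cultures, where processed intensity ran from 42.9 to 75.3 and from 33.9 to 57.0. Gata1 was 6.34-fold lower in sDCs than in maDCs (-2.66) and 2.96-fold lower than in imDCs (-1.56), which were -1.75 and -0.76 with normexp background correction. The higher maDC level (2.14-fold that of imDCs) lay near the threshold: on the log2 scale the difference was 0.92 relative to the median gene of that comparison, 0.83 with quantile normalization, 0.99 with normexp and 0.82 with the authors' deposited values.

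**Figure D3:**
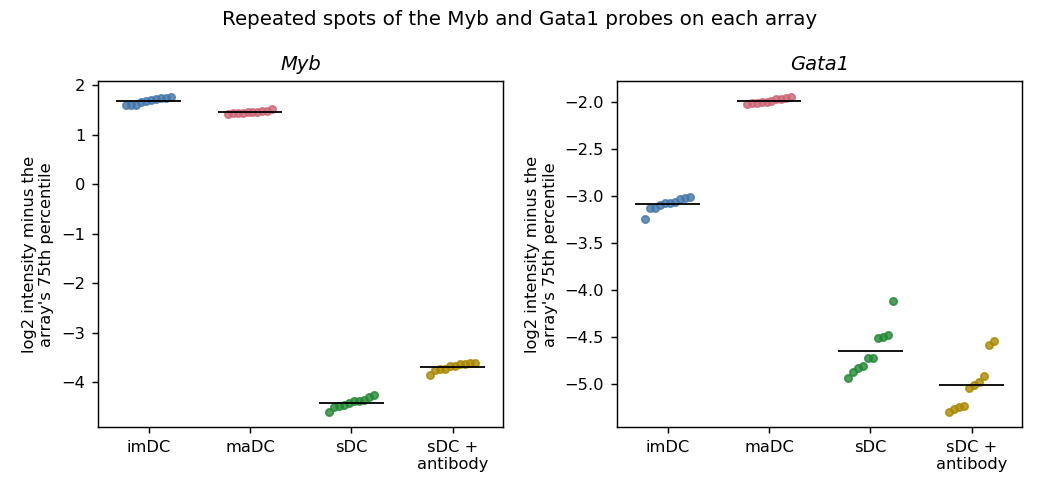
Every repeated spot of the Myb and Gata1 probes on each array (points) with the mean (line), as log2 intensity minus the 75th percentile of the array. The 10 Myb spots of antibody-treated sDCs all lie above those of sDCs, while the Gata1 spots of these 2 arrays overlap. The spread shown is that of spotting and scanning within 1 array, not that between cultures. The share of other repeatedly spotted probes without overlap was not computed.

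Tal1, the basic helix-loop-helix partner of GATA1 (mm9 chr4:114744223-114744283), stood at 1.01 in imDCs, 1.92 in maDCs, 0.83 in sDCs and 0.68 in antibody-treated sDCs. The maDC array was the highest, 2.13-fold above sDCs (1.09) and within 2-fold of imDCs (0.91). Lyl1, its close relative (mm9 chr8:87228531-87228590), showed another order, at 5.14 in imDCs, 3.33 in maDCs, 5.36 in sDCs and 5.30 in antibody-treated sDCs. Here maDCs were the low array: they lay 3.49-fold below imDCs (-1.80) and sDCs lay 4.08-fold above them (2.03), while sDCs and imDCs differed by 0.23. Lmo2, the bridging LIM protein (probe ends 4714 bases apart on the genome, mm9 chr2:103816341-103821054, so it crosses a splice junction), was also lowest in maDCs, at 0.07 against 0.66, 0.87 and 0.87, with no difference of 2-fold. Thus the stroma cultures, in which Gata1 and Myb were dim, had Lyl1 and Lmo2 at the level of imDCs.

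Gfi1, a zinc finger repressor needed for granulocyte formation, had the widest range of the 10 members. Its probe (mm9 chr5:108145852-108145911) stood at 2.35 in imDCs, -0.54 in maDCs, -4.48 in sDCs and -3.61 in antibody-treated sDCs. The imDC array was highest and both stroma cultures lowest: maDCs were 7.42-fold below imDCs (-2.89), and sDCs were 15.4-fold below maDCs (-3.94) and 114-fold below imDCs (-6.84). With normexp sDCs were 7.99-fold below maDCs and 57.2-fold below imDCs, and the sDC level lay 1.55 log2 units above the dimmest detected probe. The range over the 4 arrays was 6.84, larger than that of 99.3% of the 12942 genes well above background on all of them. That of Myb was 6.08 (98.8%), that of Cd34 3.71 (94.2%) and that of Gata1 3.03 (90.6%), against a median of 1.05 over these genes.

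Cebpa, which encodes the C/EBP factor at the entry to the granulocyte and monocyte lineage, was highest in imDCs on both of its probes. The brighter probe (mm9 chr7:35906517-35906576) gave -0.10 in imDCs, -1.55 in maDCs, -1.67 in sDCs and -1.17 in antibody-treated sDCs, and the other -2.55, -3.81, -4.00 and -3.70. The fall from imDCs was 2.74-fold in maDCs (-1.45, and -1.26 on the other probe) and 2.98-fold in sDCs (-1.57, and -1.45 on the other probe). The maDC and sDC levels differed by -0.12 and -0.19 on the 2 probes. Cebpa was thus below its imDC level on the other 3 arrays, whereas Myb and Cd34 in maDCs lay within 2-fold of imDCs; with 1 array per culture the difference between these patterns was not tested.

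Runx1, which encodes a DNA-binding subunit of core binding factor, varied least. Its brighter probe (mm9 chr16:92604413-92604472) stood at -1.48 in imDCs, -1.88 in maDCs, and -1.81 in sDCs, with antibody-treated sDCs at -0.19 against sDCs, and a junction-crossing probe (chr16:92614003-92644455) at -1.48, -1.66, -2.11 and -2.07. The range of 0.53 on the first probe was larger than that of 18.7% of genes. Meis1, a homeobox partner of HOX proteins, was dim on all arrays and its 2 probes disagreed in size. The probe at mm9 chr11:18781206-18781265 gave -3.71, -3.01, -4.09 and -4.38, and the probe 130041 bases away at chr11:18911247-18911306 gave -4.50, -1.73, -5.16 and -4.86. On both, maDCs were the highest array, but they exceeded imDCs by 0.70 on the first and by 2.77 (6.82-fold) on the other, and sDCs stood against maDCs at -1.08 (-0.72 with normexp) and -3.43, or -2.26 with the mean of both probes. The call for Meis1 in maDCs against imDCs thus rests on the probe chosen. The first 30 bases of both are shown for that reason:
A_52_P26195 (brightest): gacaggaaggtctgatttgcaggattttta
A_52_P670612: gagaaggaggatcaaaatcagacagtgaag

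The antibody against IL-10 was followed by small differences. Of the members, Gfi1 (0.87), Myb (0.72) and Cebpa (0.50) were higher in antibody-treated sDCs than in sDCs and Cd34 was lower (-0.63), all within 2-fold, and the remaining 6 lay between -0.36 and 0.00. The median size of the difference was 0.33 over the members and 0.11 over all 14393 genes. A second Myb probe, A_51_P375538, gave 1.09, from an sDC level only 0.40 above the dimmest detected probe. In the same comparison 7 of 10 granulocyte precursor and neutrophil genes were at least 2-fold higher (background 0.862%), among them Ltf (lactoferrin, 1.81) and Ngp (1.71), and their part in these values was not tested.

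The partners of these regulators, taken from lists, showed which neighbours of each factor shared its pattern. In the list of GATA, TAL1 and LMO2 partners, 5 of 17 genes were lower and 2 higher in sDCs than in imDCs (16.1% and 25.4% of all genes). Gata2, the GATA factor of stem, progenitor and mast cells, stood at -4.91 against imDCs and -7.59 (192-fold lower) against maDCs, and was 2.68 higher in maDCs than in imDCs. Cbfa2t3, a co-repressor bound by TAL1 complexes, was at -5.03 and -4.85 in the same comparisons, and Gfi1b, the erythroid and megakaryocyte relative of Gfi1, at -2.77 and -3.78. Lmo1, a relative of Lmo2, was at -6.08 in maDCs against imDCs and at least 585-fold lower in sDCs than in imDCs. Of the E protein genes, Tcf3 and Tcf12 were within 2-fold of imDCs in both maDCs and sDCs, as was the adaptor gene Ldb1, while Tcf4 was at 2.19 and 1.54. Against maDCs, 7 of 16 were lower in sDCs and 0 higher (16.8% and 14.2% of all genes).

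In the list of progenitor surface and signalling genes, 7 of 17 were lower and 3 higher in sDCs than in imDCs (16.1% and 25.4% of all genes), and 10 of 16 lower and 3 higher than in maDCs (16.8% and 14.2%). Kit, the stem cell factor receptor, was at -4.01 against imDCs and -5.16 against maDCs. Slamf1 (CD150) was at -4.75 and -6.56, Socs2, a feedback inhibitor of cytokine receptors, at -5.73 and -7.02, and Prom1 (CD133) at least 178-fold below imDCs. In maDCs against imDCs the list had 7 of 16 higher and 2 lower (21.6% and 10.8% of all genes), led by Procr (the endothelial protein C receptor, 3.83), Prom1 (-3.42) and the adhesion receptor gene Adgrg1 (2.38). Of 22 stem and progenitor transcription factors with a value, 7 were lower and 8 higher in sDCs than in imDCs (16.1% and 25.4% of all genes), so this list did not move one way: Erg, an ETS factor of stem cells, was at -5.40 and Hlf at least 14.0-fold lower.

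The families of single members held genes on both sides, and their counts in sDCs against imDCs stand beside all-gene shares of 25.4% higher and 16.1% lower. Among MYB relatives and coactivators 1 of 7 was higher and 2 lower; Mybl2 (B-Myb), a cell cycle gene, was at -4.24 in sDCs against imDCs, while the coactivator genes Ep300 and Crebbp lay at 0.32 and 0.05. Among the C/EBP genes 2 of 7 were higher in sDCs than in imDCs and 0 lower, which is near the share over all genes: Cebpb, the C/EBP factor of activated macrophages, was at 1.39 and Trib2, whose pseudokinase promotes C/EBPα degradation, at 1.66. The RUNX list had 1 of 7 higher (Runx1t1, 3.30) and 1 lower (Tle1, -1.13), no more than the shares over all genes. The list of GFI1 co-repressors and myeloid switch genes had 4 of 12 higher and 3 lower. Its co-repressor genes Kdm1a, Rcor1, Hdac1 and Hdac2 were at -0.32, 0.21, -0.64 and -1.49, the inhibitor gene Id2 at 2.54 and Egr2, a macrophage fate factor that GFI1 represses, at -2.16.

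Markers of other marrow cells that use these regulators moved on the same arrays. Granulocyte precursor and neutrophil genes (10) were all well above background on the 4 arrays. Against imDCs, 10 of 10 were lower in maDCs (10.8% of all genes) and 10 of 10 in sDCs (16.1%). Against maDCs, 8 of 10 were lower in sDCs and 1 higher (16.8% and 14.2% of all genes). Their median level was 6.28 in imDCs, 1.13 in maDCs, -1.48 in sDCs and 0.07 in antibody-treated sDCs. Their summed level was 10.34, 6.84, 7.03 and 7.90, and in sDCs it was mostly that of S100a8 (6.14) and S100a9 (5.82), which macrophages and monocytes also express. Mast cell and basophil genes with a value were higher in maDCs than in imDCs for 8 of 8 (21.6% of all genes) and lower in sDCs for 7 of 8 (16.1%), the exception being Mcpt4 (2.87). Their summed level was 4.67, 7.04, -0.63 and -0.24, with Cpa3 (carboxypeptidase A3) at 3.54 in maDCs and -7.78 in sDCs against imDCs, and Tpsb2 dim on the last 3 arrays. Of 4 eosinophil genes with a value, 3 were lower and 0 higher in maDCs than in imDCs (10.8% and 21.6% of all genes). These were Prg2 (-2.76), Epx (-3.07) and Ear6 (-5.19), while Gata1 was higher in maDCs. In sDCs against imDCs, 3 of 4 were lower as well (16.1%). Of 18 cell cycle genes, 15 were lower in maDCs (10.8% of all genes) and 17 in sDCs (16.1%) than in imDCs. The parts of these marker shifts in the values of Gfi1, Gata1, Cd34 and Myb were not tested.

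Erythroid and endothelial markers bear on Gata1, Tal1 and Cd34 as well. Of 8 erythroid genes 6 were on the array. Their summed level was -1.18 in imDCs, -0.35 in maDCs, -1.77 in sDCs and -1.84 in antibody-treated sDCs. In maDCs against imDCs 2 of 3 with a value were higher and 0 lower (21.6% and 10.8% of all genes). In sDCs against maDCs 2 of 3 were lower and 0 higher (16.8% and 14.2%). In sDCs against imDCs 1 of 4 was lower and 0 higher (16.1% and 25.4%). Of 10 endothelial genes, 9, 8, 6 and 4 were well above background on the 4 arrays in the order given above, and the summed level ranged from 0.95 to 1.94. Pecam1 (CD31) was at -4.73 in sDCs against imDCs and Kdr (a VEGF receptor) at 4.07. The part of erythroid and endothelial cells in the levels of Gata1, Tal1 and Cd34 was not tested. The stromal list, whose cells can carry Cd34, was at -1.09 to -0.35 in antibody-treated sDCs against sDCs, beside the -0.63 of Cd34. In sDCs against imDCs its median was 7.20, while Cd34 stood at -2.67. The part of stromal cells in the Cd34 level was not tested.

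**Figure D4:**
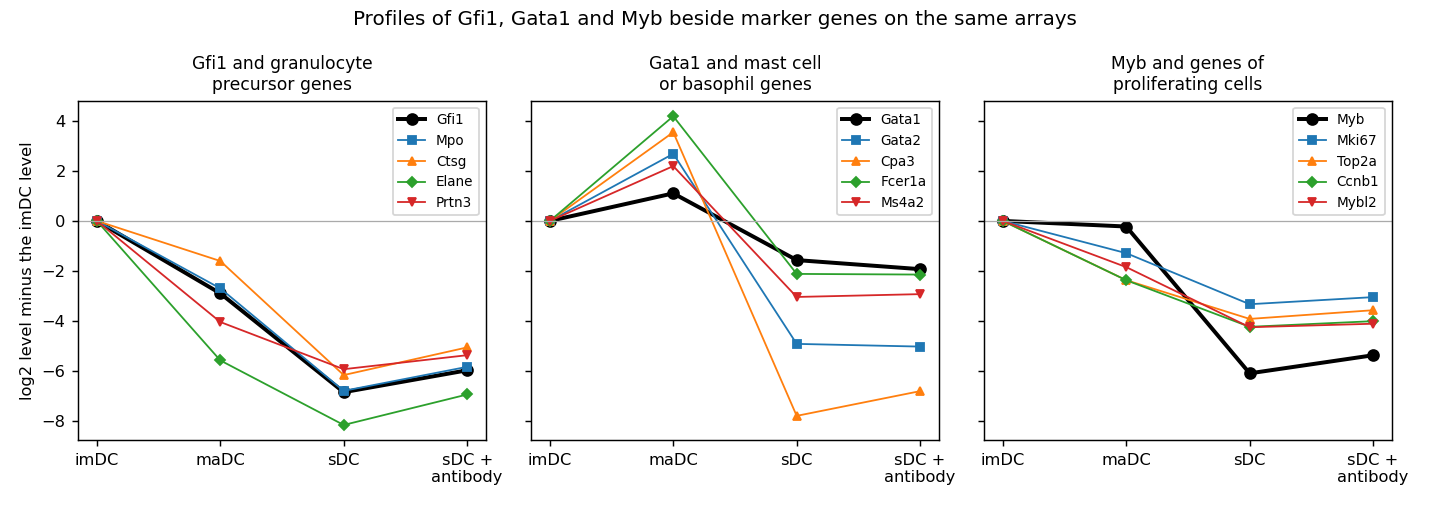
Level of Gfi1, Gata1 and Myb minus their imDC level (black) beside 4 genes each of granulocyte precursors, mast cells or basophils (with Gata2), and proliferating cells; the genes drawn were picked after their values were seen. Gfi1 runs along Mpo, which is among its nearest profiles over all genes compared. In maDCs Gfi1 is at -2.89 and Mpo at -2.69, while Ctsg is at -1.60, Prtn3 at -4.03 and Elane at -5.57. Gata1 peaks in maDCs with Gata2 and the mast cell genes drawn. Mcpt4, not drawn, is at 2.87 in sDCs, where Gata1 is at -1.56. Of 4 eosinophil genes with a value, not drawn, 3 were lower in maDCs than in imDCs (10.8% of all genes). The brightest Myb probe stands at -0.22 in maDCs, where Mki67 is at -1.29, Top2a at -2.37 and Bub1, not drawn, at 0.87. The other Myb probes, not drawn, were at -0.92, -0.83 and 0.82.

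To describe the patterns further, the genes nearest to each member over the 4 arrays were taken, by the root mean square distance between centred log2 profiles among 12932 other genes well above background on all arrays. Next to Gfi1 were Serpinb1a, a leukocyte elastase inhibitor gene, at a distance of 0.06, and Mpo, the myeloperoxidase gene of granulocyte precursors, at 0.08. Mpo stood at -2.69, -6.78 and -5.82 against imDCs in maDCs, sDCs and antibody-treated sDCs. These were the 2 genes within 0.25 of Gfi1. Myb also had 2 genes within that distance, Cldn11 (0.11) and Ciita (0.20), Cd34 had 15, led by Axl (0.04), Zeb1 (0.11) and Itgb3 (0.11), and Gata1 had 53, led by Rgs12 (0.07). For Tal1, Meis1, Cebpa, Lmo2 and Runx1 the number ran from 311 to 2413, and for Lyl1 it was 42, so a near profile is common for genes that vary little. These distances rest on 4 arrays.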

How the data were processed

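For every array the authors deposited the scanner output, and the column used holds processed spot intensity. Per the file headers, Agilent Feature Extraction 10.5.1.1 subtracted background, detrended the intensity, set surrogates for dim spots and placed probes on mm9; version 9.1 is the one in the submitters' processing notes. They also deposited a value table, used as an alternative, which is on a log2 scale: its columns share a median of 6.30 and correlated with log2 intensity at 0.997 to 1.00 across probes. Its log2 scale and shared centring were read from these values, while how it was normalized is not stated in the sources used here. The labels name 0.5 µg of RNA labelled with Cy3 per array.

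From the processed intensity, log2 was taken and each array's 75th percentile over 43379 non-control spots subtracted. Spots marked as outliers (76, 132, 117 and 148) were left out, none was saturated (0 spots), and spots of 1 probe were averaged. A probe passed as well above background if 50% or more of its spots carried that mark. If only 1 of the arrays compared was, the difference is a bound ("at least"), with the dim side set to the dimmest detected probe, or to its own signal where that was brighter. Each gene was represented by its probe with the highest mean; probes were named through RefSeq (GRCm38.p6, names only), 25097 by accession, 6333 by symbol and 1640 by synonym, with 8104 unmatched. Summed levels are log2 of the sum of scaled intensities over the listed genes of 1 of 19 lists. Exon and UTR positions of probes were not analysed here. Scripts were tested on simulated data. The number of arrays limits the precision.

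The members, the lists and the rules were chosen with earlier results of these data known. The rule for naming was all 10 members with every probe, up to 3 genes per list and comparison with the largest differences, and the 3 nearest profiles. Not every gene under this rule is named above, for instance Robo4 of the endothelial list and the near genes of several members. Genes given as contrasts within a list were chosen after their values were seen. Tools were Python 3.11.15, pandas 2.3.3, matplotlib 3.10.9, R 4.3.3 and limma 3.58.1 (normexp with offset 50).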

Additional observations from a re-analysis of the deposited data

How the results depend on the processing

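The 40 differences of the members were recomputed under 7 alternatives: quantile normalization, normexp background correction, the authors' deposited values, a percentile over probes detected on all arrays, no filter on dim probes, only probes detected on both arrays, and the mean over a gene's probes. Of 280 values, 104 could not differ, since every member's brightest probe was detected on all arrays and 6 members have 1 probe. Of the other 176, 170 kept their side of the 2-fold threshold, 5 fell below it (Gata1 in maDCs against imDCs at 0.83, 0.99 and 0.82 with quantile, normexp and deposited values; Gata1 in sDCs against imDCs at -0.76 and Meis1 in sDCs against maDCs at -0.72 with normexp) and 1 passed it (Meis1 in maDCs against imDCs at 1.74 with the mean over probes). The background share in the antibody comparison, 2.12%, was 0.609% with normexp, 4.51% with no filter and 1.23% with probes detected on both arrays. The median gene lay at 0.18 in maDCs against imDCs and 0.21 in sDCs against imDCs, and at 0.02 and 0.03 with quantile normalization; the share of higher genes among those past 2-fold in maDCs against imDCs was 66.7%, and 56.3% with the deposited values and 78.2% with no filter on dim probes. The cause of these shifts was not tested. Dim levels limit the values of Gata1, Meis1, Myb and Gfi1 in the stroma cultures, which lay 0.75 to 2.15 log2 units above the dimmest detected probe. No paired analysis was possible because each group has 1 sample.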

Other observations

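The list of stem and progenitor transcription factors held genes that were higher in sDCs than in imDCs beside Gata2, Erg and Hlf, which were far lower. The genes below were picked after their values were seen, no theme was tested, and 25.4% of all genes were higher in this comparison. Meis2 and Meis3, relatives of Meis1, were higher by 2.71 and 2.63, and the homeobox genes Hoxa7, Hoxa9 and Hoxb4 by 2.33, 1.34 and 1.30. On the imDC array these genes were dim, from -6.49 (Meis3) and -5.87 (Hoxa9) to -4.28 (Hoxa7). The dimmest detected probe of that array lay at -7.28, and these genes were not recomputed with normexp. Hoxa10 was at least 5.02-fold higher, while Hoxa5 was not well above background on any array and Fli1 (0.20), Hhex (-0.25), Bmi1 (-0.13) and Ikzf1 (0.22) lay within 2-fold. Against maDCs, Meis2 was at 2.38, Hoxa7 at 1.48 and Meis3 at 1.12, Hoxb4 lay within 2-fold at 0.93, and Hoxa9, dim in maDCs, was at least 1.88-fold higher. Meis1 itself stood at -0.38 in sDCs against imDCs. The stromal list moved on the same arrays, 9 of 10 genes higher, and its part was not tested.

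Cd34 and Thy1, which both blood progenitors and stromal cells can carry, stood at -2.67 and -2.03 in sDCs against imDCs, in the sample in which the collagen genes Col1a1 and Col1a2 were 8.16 and 7.20 higher. Of the platelet and megakaryocyte genes, Pf4 (platelet factor 4) was 2.38 higher in maDCs and 2.17 higher in sDCs than in imDCs, whereas Itga2b (CD41) was at -0.03 and -1.67. In antibody-treated sDCs 3 of 8 genes of that list were at least 2-fold lower than in sDCs (1.26% of all genes), Ppbp (-1.48), Gp1ba (-1.15) and Gp9 (-1.11).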
